A study of Mus musculus with 4 samples.

Results

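Folr2, Cbr2, Tns1, Fcna, Lgals1, Maf and Psd3 are 7 of the 31253 genes in a single-cell count matrix of mouse peritoneal cells. They were chosen by their counts in the same matrix, where earlier work found them higher in macrophages with a transcript of Lyve1 than in macrophages without one, so their relation to Lyve1 is a description here and not a test. The question here is whether they are found together in the same cells, above all in macrophages in which no Lyve1 transcript was counted. Such cells may hold Lyve1 that was not counted, so their co-detection is not independent of that choice and is also a description. All 7 symbols were found in the matrix, each under 1 gene identifier.

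Lyve1 encodes a membrane receptor for hyaluronan that marks lymphatic endothelium and a class of resident tissue macrophages. Macrophages of that class are known for taking up debris and soluble ligands and for expressing scavenger and lectin genes. Folr2 encodes folate receptor beta, an uptake receptor at the surface of resident macrophages. Fcna encodes ficolin A, a secreted lectin that recognises sugars on microbes and starts the lectin pathway of complement. Lgals1 encodes galectin 1, a lectin that binds beta-galactosides. Cbr2 encodes a carbonyl reductase, Tns1 encodes tensin 1, which links integrins to the actin cytoskeleton, and Psd3 encodes an exchange factor of the small GTPase ARF6. Maf encodes c-MAF, a basic leucine zipper transcription factor of resident macrophages.

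The cells were F4/80+ cells sorted from the peritoneal cavity of mice aged 24 weeks, with 1 sample in each of 4 groups. They were Apoe-/- mice fed a high-fat diet and injected with anti-CVI-mAb, an antibody to collagen VI by the study's title, Apoe-/- mice fed that diet and injected with PBS, Apoe-/- mice on a normal diet and C57BL/6 mice on a normal diet, the last 2 also injected with PBS. The high-fat diet, with 21% fat and 0.15% cholesterol, was begun at an age of 4 weeks and lasted 20 weeks, and was replaced by normal food before the injections at week 21. The antibody was given as 3 mg in 200 µL. The 3 groups other than C57BL/6 lacked Apoe, the gene of the cholesterol carrier apolipoprotein E, in the whole animal, and the sources used here do not say how many mice a sample holds.

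Barcodes carried the suffixes 1 to 4, called libraries here. Nothing in the labels or the file headers says which library is which group, so no genotype, diet or antibody was compared and no library was assigned from its values. A group has 1 library and so no replicate, and cells of a library are not replicates either, so no p-value is given. Values in parentheses after a share are its exact 95% binomial interval by Clopper and Pearson, which covers counting error only.

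The libraries held 6254, 6765, 6454 and 7338 barcodes and between 40321459 and 78083803 transcripts counted by unique molecular identifier (UMI). Filters of at least 500 genes and at most 10% mitochondrial UMIs kept 20864 of 26811 barcodes. Library 1 stood apart: it lost 42.3% of its barcodes against 11 to 19.3% in the others. Macrophages were cells with at least 2 UMIs of Adgre1, the gene of F4/80, and none of the lymphocyte genes Cd79a and Cd3e. They numbered 1538, 4218, 4334 and 5017 in libraries 1 to 4. Csf1r, the gene of the growth factor receptor of macrophages, had a UMI in 97.3 to 99.2% of them. Apoe, the deleted gene, stood at 30.1 UMIs per 1000000 (CPM) in macrophages of library 1, at 863 and 738 CPM in libraries 2 and 3 and at 29778 CPM in library 4, which checks no label as the libraries have none. A total of 104 barcodes, 54 of them macrophages, carried a sequence found in more than 1 library.

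At least 1 Lyve1 UMI was found in 701, 169, 160 and 242 macrophages, and none in 837, 4049, 4174 and 4775. The positive share was 45.6% (43.1 to 48.1) in library 1 and 4.01, 3.69 and 4.82% in libraries 2 to 4, beside 7.68, 0.524, 0.647 and 0% of B cells. A cell with no Lyve1 UMI at these depths may still hold the transcript. For every comparison below that does not name unthinned counts, a random 3000 UMIs of each cell were used (thinning). Thinning left out 193 shallower macrophages and kept 1248 with and 13666 without a Lyve1 UMI.

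The upstream sequences of Fcna, Folr2 and Cbr2 are shown for the pairs called below in every library. These pairs join Folr2 or Cbr2 with Maf, and Folr2 with Fcna. Cbr2 with Maf was called in 9 of 16 changed settings. c-MAF is known to bind DNA elements that contain the half-site TGCTGA. RefSeq promoter windows on GRCm38.p6 were at hand for 4 of the 7 members, Tns1 among them, as 250 bases before each start. The half-site was searched on both strands and is in capitals. All 4 genes are read from the minus strand. Bases that GENCODE M21 places in an exon of the gene are left off the end.
Fcna, chr2:25628031-25628224: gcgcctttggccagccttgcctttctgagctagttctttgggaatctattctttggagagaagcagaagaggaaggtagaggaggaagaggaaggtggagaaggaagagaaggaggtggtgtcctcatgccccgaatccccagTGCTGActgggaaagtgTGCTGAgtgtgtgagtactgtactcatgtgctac
Folr2, distal start, chr7:101857195-101857440: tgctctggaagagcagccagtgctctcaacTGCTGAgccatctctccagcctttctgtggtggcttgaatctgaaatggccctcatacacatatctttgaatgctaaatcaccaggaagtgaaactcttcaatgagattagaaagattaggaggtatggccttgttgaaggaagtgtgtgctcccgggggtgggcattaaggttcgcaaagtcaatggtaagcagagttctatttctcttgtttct
Folr2, proximal start, chr7:101845332-101845581: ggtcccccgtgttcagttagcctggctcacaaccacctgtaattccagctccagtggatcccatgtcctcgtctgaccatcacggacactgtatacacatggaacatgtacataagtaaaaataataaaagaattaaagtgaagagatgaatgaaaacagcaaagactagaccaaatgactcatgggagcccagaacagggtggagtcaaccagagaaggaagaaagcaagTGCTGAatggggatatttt
Cbr2, chr11:120732115-120732271: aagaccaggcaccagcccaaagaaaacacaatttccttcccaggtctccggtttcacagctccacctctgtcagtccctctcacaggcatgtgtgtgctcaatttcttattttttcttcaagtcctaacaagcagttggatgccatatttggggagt
The Fcna window held 2 half-sites, each Folr2 window held 1, and the windows of Cbr2 and Tns1 held 0. Of 32851 RefSeq promoter windows of that length, 16.1% held at least 1, so a match is common and is a description of letters only.

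Folr2 was found in a larger share of Lyve1-positive than of Lyve1-negative macrophages in each library. With a Lyve1 UMI, 72.0% (68.5 to 75.4) of cells had a Folr2 UMI in library 1, 58.9% (51.1 to 66.4) in library 2, 37.1% (29.6 to 45.1) in library 3 and 28.1% (22.5 to 34.2) in library 4. Without one, the shares were 40.8% (37.3 to 44.4), 16.8% (15.6 to 18.0), 4.50% (3.89 to 5.18) and 3.73% (3.21 to 4.31). Folr2 was thus present in many Lyve1-negative macrophages of library 1, in a minority of library 2 and in few of libraries 3 and 4. In B cells, gated on Cd79a and Cd79b and on having no Adgre1 UMI, which should lack Folr2, the shares were 5.41, 0.183, 0.380 and 1.19%; the B cell interval overlapped that of Lyve1-negative macrophages in library 4 only (0.246 to 3.44). Before thinning, at median depths of 8374, 12997, 15265.5 and 15743 UMIs with and 7981, 12497, 13909 and 12818 UMIs without a Lyve1 UMI, Folr2 was in 87.7, 84.0, 54.4 and 52.1% of Lyve1-positive and in 56.6, 36.5, 11.4 and 9.49% of Lyve1-negative macrophages. B cells had median depths of 9495, 7044.5, 4859 and 6368.5 UMIs. Folr2 lies on chromosome 7 of GRCm38 from 101839988 to 101857194, on the minus strand. Its neighbour Folr1, the gene of folate receptor alpha, had 0 unthinned UMIs in Lyve1-positive and 1, 7, 2 and 1 in Lyve1-negative macrophages.

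Cbr2 and Tns1 were in fewer cells, and library 1 again had the largest shares of both. Cbr2 (chromosome 11, 120729489 to 120732114) was in 41.2, 16.7, 9.43 and 7.02% of Lyve1-positive and in 17.2, 3.73, 1.83 and 1.5% of Lyve1-negative macrophages. Tns1 (chromosome 1, 73910231 to 74124449) was in 39.9, 2.98, 15.7 and 9.92% of Lyve1-positive and in 19.4, 1.45, 3.40 and 2.55% of Lyve1-negative macrophages. Library 2 thus held few Tns1-positive cells although it ranked next to library 1 for Folr2 and Cbr2. In B cells the shares in libraries 1 to 4 were 1.4, 0.548, 0 and 0% for Cbr2, and 2.27% in library 1 and 0% in the others for Tns1; no B cell with a UMI among 252 in library 4 allows a share of up to 1.19% at 3 counts of the total. The exact interval of that share for Cbr2, 0 to 1.45%, overlapped that of Lyve1-negative macrophages of library 4, 1.17 to 1.88%. Unthinned, Cbr2 was in 18.2 to 62.1% of Lyve1-positive and 5.28 to 31.4% of Lyve1-negative macrophages, and Tns1 in 18.3 to 62.6% and 4.20 to 32.6%.

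The lectin gene Fcna was in most macrophages of either kind, so its presence alone separates few cells. It was in 99, 87.5, 92.5 and 90.5% of Lyve1-positive and in 89.8, 56.0, 78.2 and 81.5% of Lyve1-negative macrophages, and in 31.6, 5.30, 9.51 and 6.35% of B cells. Unthinned, the ranges were 98.8 to 100% and 84.3 to 97.4%. Fcna lies on chromosome 2 from 25624666 to 25628030 inside the antisense gene Fcnaos, and the sources used here do not say how strand was treated in counting. Fcnaos had 4, 0, 1 and 8 unthinned UMIs in Lyve1-positive and 3, 12, 11 and 7 in Lyve1-negative macrophages, against 3230 or more of Fcna in each set. Fcnb, the gene of the related ficolin B, had 0 UMIs in macrophages of all 4 libraries.

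Maf (chromosome 8, 115682942 to 115707794) was in 83.5, 60.1, 47.2 and 47.5% of Lyve1-positive and in 65.9, 30.4, 24.7 and 24.8% of Lyve1-negative macrophages. B cells had 0.731 to 6.11%. T cells, gated on Cd3e and on having no Adgre1 UMI, had between 29.7 and 55.4%. Unthinned, Maf was in 76.3 to 96.1% of Lyve1-positive and 58.4 to 83.4% of Lyve1-negative macrophages.

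Lgals1 and Psd3 were found in B cells as well. Lgals1 (chromosome 15, 78926725 to 78930465) was in 17.4, 20.2, 29.6 and 20.7% of Lyve1-positive and in 8.91, 9.41, 12.3 and 9.52% of Lyve1-negative macrophages, but in 30.5, 39.7, 21.3 and 26.2% of B cells and in 64.3 to 86.3% of T cells, so no gated class gives its background. Unthinned, its ranges were 35.7 to 53.8% and 21.0 to 31.2%. Psd3 (chromosome 8, 67689082 to 68212027) was in 6.63, 3.57, 5.66 and 4.13% of Lyve1-positive and in 4.78, 3.65, 3.18 and 3.56% of Lyve1-negative macrophages, with 7.16, 3.11, 4.94 and 1.98% in B cells. Its macrophage and B cell intervals overlapped in each library. No Psd3 UMI was found in 61, 52, 79 and 74 unthinned T cells, which give only an upper limit of its background. The summed unthinned Psd3 level in Lyve1-negative macrophages was 15.8, 11.6, 11.3 and 12 CPM. In T cells it was 0 CPM, with exact Poisson upper limits of 10.3, 12.8, 10.2 and 8.39 CPM. The macrophage level lay above the T cell limit in libraries 1, 3 and 4, and below it in library 2. The same unthinned level in B cells was 19.9, 12.8, 13.3 and 12.1 CPM, not below that of Lyve1-negative macrophages in any library. Unthinned, Psd3 was in 17.0 to 23.6% and 11.7 to 13.9%.

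**Figure D1:**
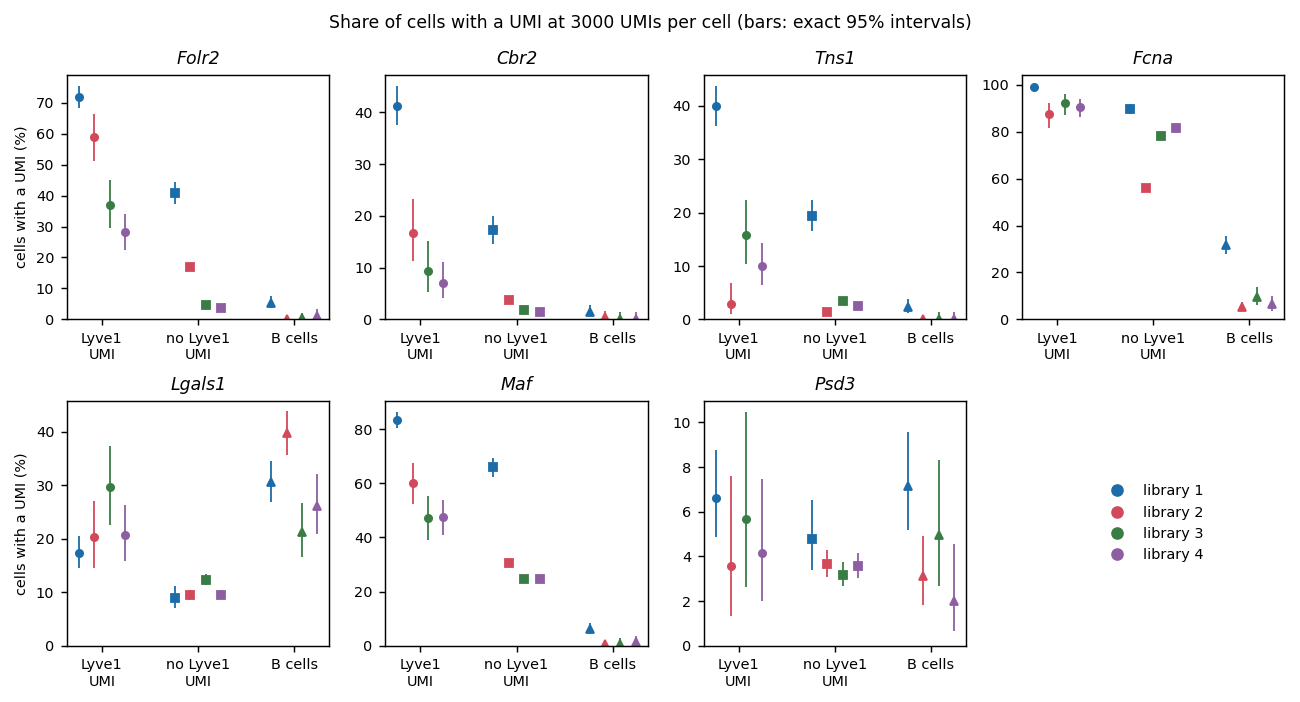
Share of cells with a UMI of each member after thinning to 3000 UMIs, in percent, for macrophages with a Lyve1 UMI (circles), macrophages without one (squares) and B cells (triangles); colours are libraries 1 to 4 and bars are exact 95% intervals. Folr2, Cbr2 and Maf run from high in library 1 to lower in libraries 3 and 4, whereas Lgals1 is higher in B cells than in Lyve1-negative macrophages and the Psd3 bars overlap.

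The level of the members by Lyve1 status is what chose them and is given for reference. On the log2 scale, the ratio of summed thinned UMIs, in CPM, in Lyve1-positive over Lyve1-negative macrophages was 1.35, 2.44, 3.79 and 3.15 for Folr2 and 1.68, 2.47, 3.34 and 2.48 for Cbr2. These 2 of 7 members passed a rule of 20 CPM and a ratio of at least 1 in every library, which 0.0627% of 4781 genes tested passed. Fcna had 1.12, 1.69, 1.05 and 0.83, Lgals1 0.98, 1.13, 1.71 and 1.37, and Maf 0.71, 1.4, 1.66 and 1.23. Tns1, with 1.21, 1.34, 2.17 and 2.14, and Psd3, with 0.74, 0.05, 1.13 and 0.21, did not reach 20 CPM in every library. Cells at the edge of the Lyve1 limit lay between the strata for Folr2 in every library: those with exactly 1 Lyve1 UMI had a Folr2 UMI in 53.5, 41.4, 16.9 and 15.1%, and those with 2 or more in 76.9, 68.2, 49.0 and 35.3%. At the edge of the Adgre1 limit, Lyve1-negative cells with exactly 2 Adgre1 UMIs had Folr2 in 51.8, 14.9, 13 and 8.05%, and those with exactly 1, which are not macrophages by the limit, in 27.3, 14.8, 5.88 and 5.21%.

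Within Lyve1-negative macrophages, Folr2 was found together with Fcna and with Maf, and Cbr2 with Maf, in every library. Co-detection was measured as the odds ratio of a UMI of one member between cells with and without a UMI of the other, with 0.5 added to each count, and 2 was the limit for calling a pair. Of the 21 pairs, these 3 passed the limit in all 4 libraries and 15 had odds ratios above 1 in all 4. Among all 37684221 pairs of genes with a UMI in 1 to 99% of these cells in every library, 0.0234% passed in all 4. In single libraries 5, 10, 8 and 9 of the 21 pairs passed, beside 9.48, 2.11, 2.7 and 2.34% of all pairs of genes. The median odds ratio of the 21 pairs was 1.47, 1.88, 1.82 and 1.97, and that of all pairs of genes 1.05, 1.03, 1.03 and 1.03. The 21 pairs share 7 genes and are not independent of each other, and the members had been chosen with results of these cells in view.

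Library 1 had Fcna in 95.9% (93.1 to 97.8) of 316 Folr2-positive and 85.6% (82.0 to 88.7) of 458 Folr2-negative cells. Library 2 had Fcna in 75.6% (72.1 to 78.8) of 671 Folr2-positive and 52.1% (50.4 to 53.8) of 3324 Folr2-negative cells. The shares were 90.9% (85.8 to 94.6) of 187 and 77.6% (76.2 to 78.9) of 3964 cells in library 3, and 92.7% (87.8 to 96.0) of 177 and 81.1% (79.9 to 82.2) of 4569 cells in library 4. The intervals were apart in each library, and the odds ratios, 3.81, 2.84, 2.82 and 2.85, differed little among libraries.

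Maf was in 79.4, 45.2, 49.2 and 44.6% of Folr2-positive cells, against 56.6, 27.4, 23.5 and 24.0% of Folr2-negative cells. The odds ratios were 2.95, 2.18, 3.15 and 2.56. Cbr2-positive cells, of which there were 133, 149, 76 and 71, had Maf in 81.2, 48.3, 46.1 and 40.8%, against 62.7, 29.7, 24.3 and 24.5% of Cbr2-negative cells, with odds ratios of 2.53, 2.21, 2.67 and 2.14. The intervals of the shares were apart in each library for both pairs. Cbr2 and Maf did not pass with a second random thinning, where the lowest odds ratio was 1.57, nor with thinning to 5000 UMIs, where it was 1.31, while Folr2 and Maf passed in both, with lowest values of 2.13 and 2.30. Folr2 and Fcna passed in both as well, with lowest values of 2.63 and 3.21, but not without thinning, where the lowest was 1.88. The same 3 pairs passed when the barcodes with a sequence found in more than 1 library were left out.

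Folr2 and Cbr2 had the largest median odds ratio of the 21 pairs, 4.36, but with a wide spread among libraries. Cbr2 was in 21.5% (17.1 to 26.5) of Folr2-positive against 14.2% (11.1 to 17.7) of Folr2-negative cells in library 1, in 8.05% (6.10 to 10.4) against 2.86% (2.32 to 3.48) in library 2, in 9.09% (5.39 to 14.2) against 1.49% (1.13 to 1.92) in library 3 and in 6.78% (3.55 to 11.5) against 1.29% (0.984 to 1.66) in library 4. The odds ratios were 1.66, 2.98, 6.74 and 5.73, and the intervals overlapped in library 1. The cells with both numbered 68, 54, 17 and 12, against 54.3, 25, 3.42 and 2.65 from the product of the single shares. The pair was below the limit in library 1 only. Without that library 4 pairs passed, this one added, and with the second thinning it passed in all 4 libraries, with a lowest value of 2.23.

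Pairs of Tns1 with Folr2, Cbr2, Fcna and Maf were above 1 in every library, except Cbr2 in library 3, with less uniform values. Tns1 and Fcna had odds ratios of 3.58, 4.74, 1.90 and 1.85, and Tns1 and Maf 1.47, 3.53, 2.98 and 1.98. Folr2 and Tns1 had 1.30, 2.49, 2.11 and 1.97, from 69, 19, 12 and 8 cells with both. Cbr2 and Tns1 were both detected in 35, 7, 2 and 5 cells, with odds ratios of 1.64, 3.88, 0.95 and 3.24. All of Folr2, Cbr2 and Tns1 were detected in 22, 3, 0 and 1 cells, where the product of the shares gave 10.5, 0.363, 0.116 and 0.0675.

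None of the 11 pairs with Lgals1 or Psd3 passed in every library with the first thinning. Folr2 and Lgals1 had 1.28, 1.88, 2.48 and 2.29, with Lgals1 in 10.1, 14.6, 24.6 and 18.6% of Folr2-positive against 8.08, 8.36, 11.7 and 9.17% of Folr2-negative cells. Fcna and Lgals1, both lectin genes, had 0.95, 1.28, 1.15 and 1.21. The medians of the 6 pairs with Psd3 lay between 1.16 and 1.51, and none of them passed in more than 1 library. Without thinning, Folr2 and Lgals1 passed in every library, with a lowest odds ratio of 2.02.

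**Figure D2:**
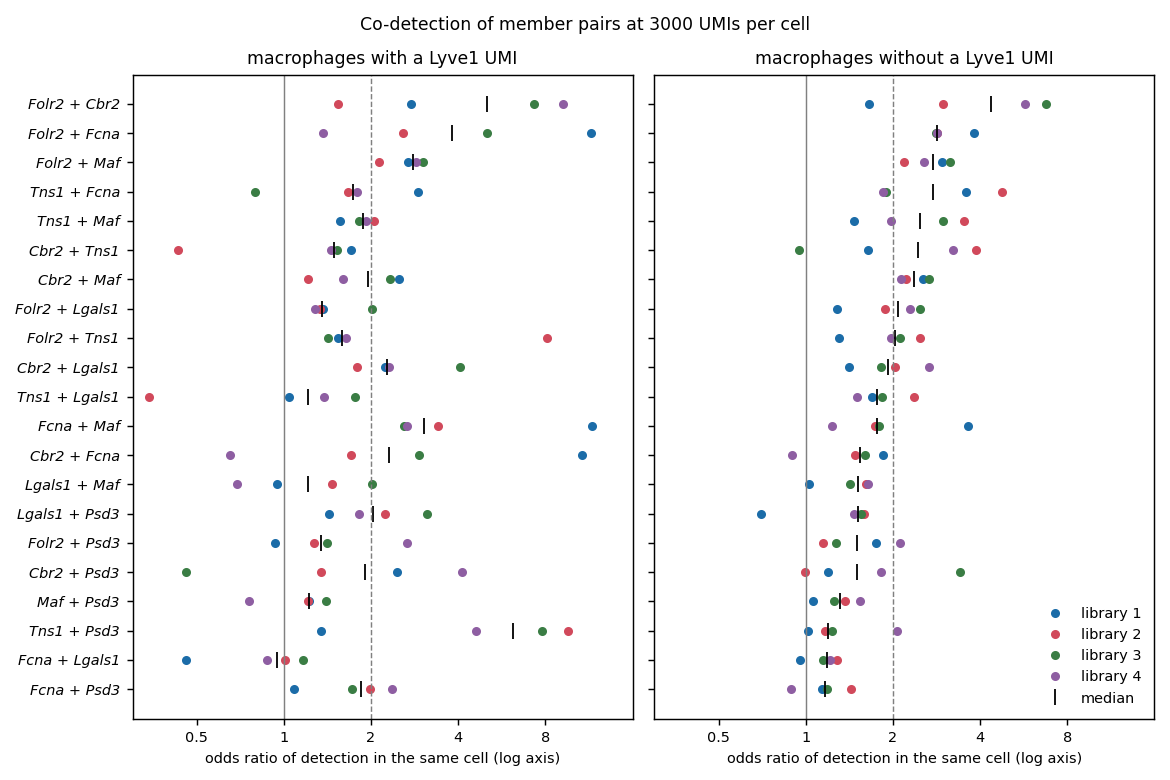
Odds ratio of detection in the same cell (log axis) for the 21 pairs of members in macrophages with a Lyve1 UMI (left) and without one (right), after thinning to 3000 UMIs; dots are libraries 1 to 4, black ticks are medians, and lines mark 1 and 2. At right, Folr2 with Fcna and Folr2 with Maf lie above 2 in every library and with little spread, while Folr2 with Cbr2 spreads from 1.66 to 6.74.

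**Figure D3:**
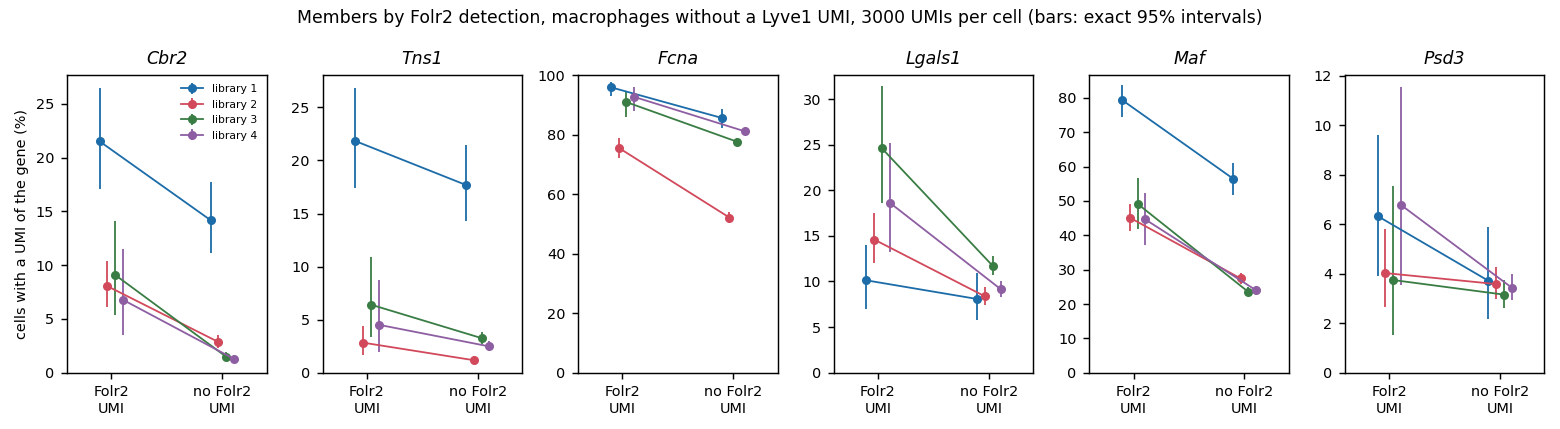
Share of Lyve1-negative macrophages with a UMI of each other member, in percent, among cells with and without a Folr2 UMI, after thinning to 3000 UMIs; colours are libraries 1 to 4 and bars are exact 95% intervals. Every line slopes down to the cells without Folr2, with intervals apart in each library for Fcna and Maf.

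In Lyve1-positive macrophages the pairs that passed the limit of 2 in all 4 libraries were Folr2 with Maf, at 2.69, 2.14, 3.03 and 2.87, and Fcna with Maf, at 11.6, 3.41, 2.61 and 2.67. In all, 12 pairs had odds ratios above 1 in every library. Folr2 and Fcna had 11.5, 2.57, 5.01 and 1.36 and Folr2 and Cbr2 had 2.75, 1.54, 7.33 and 9.22. Only 168, 159 and 242 such cells were left in libraries 2 to 4, and pairs of rare members rest on few cells or none: Cbr2 and Tns1 had 0 cells with both in library 2. The median odds ratio of the 21 pairs was 1.56, 1.66, 2.01 and 1.79 in these cells. Whether it differs from that of Lyve1-negative cells was not tested.

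More Lyve1-negative macrophages carried many members than the single shares give, and the excess grew with the number of members. At least 3 of the 7 were detected in 49.6% (46.0 to 53.2) of the 774 cells of library 1. The shares were 10.99% (10.04 to 12) among 3995, 8.09% (7.28 to 8.97) among 4151 and 6.76% (6.07 to 7.52) among 4746 cells of libraries 2, 3 and 4. The product of the single shares gave 47.1, 7.32, 5.77 and 4.87%, a ratio of 1.05, 1.5, 1.4 and 1.39. For at least 4 members the shares were 17.4, 2.30, 1.64 and 1.12% and the ratios 1.24, 3.11, 3.69 and 3.44. At least 5 members were found in 37, 20, 10 and 8 cells, with ratios of 2.25, 14.3, 14.3 and 15.8. The interval of the share with at least 3 held the product in library 1 and lay above it in the other libraries. In Lyve1-positive macrophages, at least 3 members were in 81.4, 50, 41.5 and 31.4%, against 86.7, 49.7, 42.8 and 30.6% from the product. Their ratios were 1.01, 1.46, 1.44 and 1.57 for at least 4 members. For at least 5 they were 1.32, 1.67, 3.65 and 2.72, from 163, 5, 12 and 5 cells. The ratio thus grew with the number of members in Lyve1-positive cells as well. Among B cells 2.79, 0.366, 0.380 and 0% had at least 3, and 0 of 252 cells allows up to 1.19% at 3 counts of the total, with an exact upper limit of 1.45%. The B cell ratios to the product for at least 3 were 1.01, 3.15 and 2.76 in libraries 1 to 3. They rested on 16, 2 and 1 cells, too few to set beside the macrophage ratios.

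**Figure D4:**
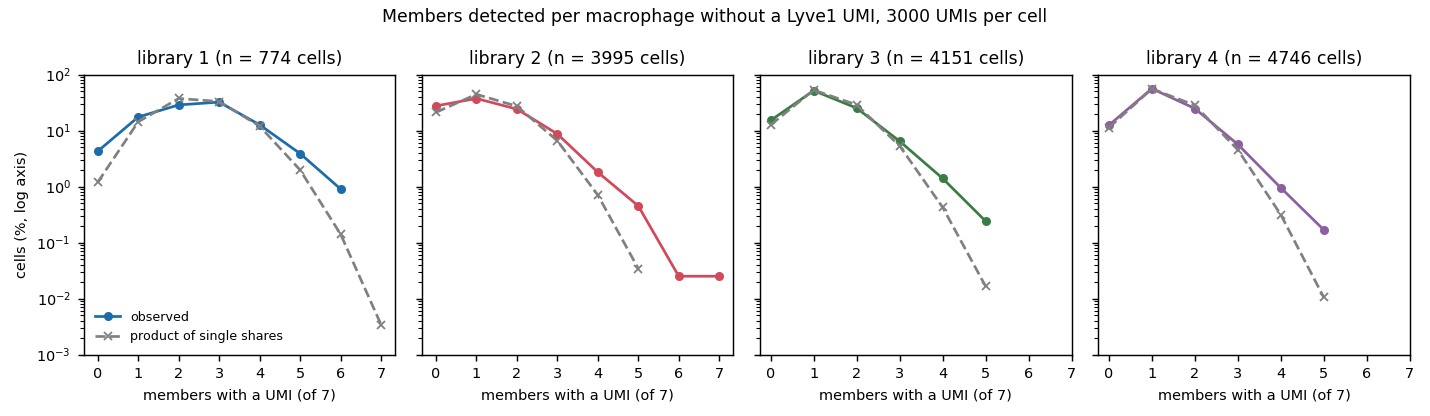
Percent of Lyve1-negative macrophages (log axis) by number of members with a UMI after thinning to 3000 UMIs, observed (solid) and from the product of the single shares (dashed, shown down to 0.001%), 1 panel per library. The observed line lies above the product at 4 and 5 members in each library, with 17.4, 2.30, 1.64 and 1.12% observed for at least 4 against 14.1, 0.740, 0.443 and 0.324% from the product.

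The share of macrophages with a Lyve1 UMI was larger in cells with at least 3 members than in cells with at most 1 in each library, which follows in part from how the members were chosen. In library 1 it was 59.0% (55.8 to 62.2) with at least 3 members and 16% (11.2 to 21.8) with at most 1. At the ends of the range in that library it was 81.5% (75.4 to 86.6) with at least 5 members and 8.33% (1.75 to 22.5) with 0. In libraries 2, 3 and 4 it was 16.1% (13.02 to 19.5), 16.4% (12.9 to 20.4) and 19.1% (15.4 to 23.4) with at least 3 members, and 1.18, 1.60 and 2.34% with at most 1. Most cells with at least 3 members in those 3 libraries therefore had no Lyve1 UMI: 439 of 523, 336 of 402 and 321 of 397, against 384 of 937 in library 1.

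**Figure D5:**
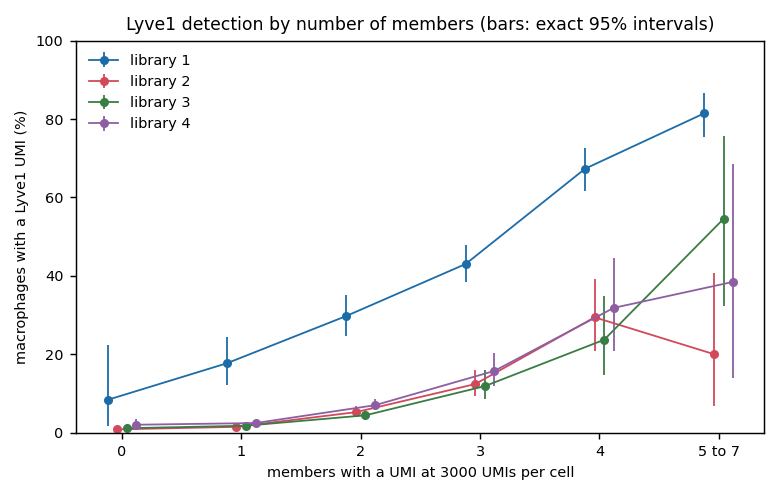
Percent of macrophages with a Lyve1 UMI by the number of members detected after thinning to 3000 UMIs; lines are libraries 1 to 4 and bars are exact 95% intervals. Library 1 lies above the others at each number, and with 5 to 7 members the points of libraries 2, 3 and 4 rest on 25, 22 and 13 cells.

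Each member was also set against every other gene in Lyve1-negative macrophages, 8681 genes for each. For Folr2, 4 genes (0.0461%) had odds ratios of at least 2 in every library: the members Fcna and Maf, Retnla, the gene of the secreted protein RELM-alpha, and Sdc3, the gene of the proteoglycan syndecan 3. Sdc3 did not pass with a second thinning. The rule for naming genes did not cover Sdc3 and the partners of Cbr2 and Tns1 that are on none of the fixed lists, so they were chosen after their values were seen. Retnla was in 95.9, 43.1, 65.8 and 54.2% of Folr2-positive against 84.3, 20.2, 18.9 and 18.4% of Folr2-negative cells, with odds ratios of 4.22, 2.99, 8.21 and 5.25. Ranked by the median over libraries, the gene most like Folr2 was Mrc1, the gene of the mannose receptor, which was in 60.4, 28.3, 25.1 and 29.9% of Folr2-positive against 44.3, 13.1, 3.41 and 4.29% of Folr2-negative cells. Mrc1 ranked 1, 1, 3 and 1 over the first thinning, a second one, thinning to 5000 UMIs and no thinning, and Retnla ranked 2, 2, 4 and 5. In the first thinning Mrc1 was below the limit in library 1, with an odds ratio of 1.92.

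Seen from Maf, the 2 genes (0.023%) that passed in every library were Folr2 and Cbr2, both members. Folr2 ranked 1, 2, 1 and 2 among all genes over the same 4 settings, whereas Cbr2 ranked 4, 8, 11 and 13. Mrc1 ranked 3, 1, 2 and 4, with a UMI in 56.7, 23.0, 8.98 and 9.70% of Maf-positive against 39.8, 12.5, 2.88 and 3.78% of Maf-negative cells.

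Seen from Fcna, 1 gene (0.0115%) passed, and it was Folr2, which ranked 2, 1 and 2 in the 3 thinned settings and 201 without thinning. For Cbr2, 5 genes (0.0576%) passed: F13a1, Maf, Mfng, Vezt and Elmod3. Folr2 was first among all genes by median for Cbr2, and ranked 1, 1, 2 and 3 over the settings. F13a1, the gene of the A subunit of coagulation factor XIII, was in 95.5, 70.5, 56.6 and 53.5% of Cbr2-positive against 84.7, 51.7, 30.6 and 23.3% of Cbr2-negative cells. Mfng rested on 4, 4, 3 and 2 cells and ranked 9 with the first and 2052 with the second thinning. F13a1, Maf and Mfng did not pass with a second thinning.

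Tns1 had other companions past the limit, although for Fcna it ranked 3, 2 and 4 among all genes in the 3 thinned settings. Tns1 and Fcna passed in every library at 5000 UMIs and without thinning. The 11 genes (0.127%) that passed in every library with the first thinning were Cdkn2a, Cyp26b1, Grn, Marco, Cxcl13, Tgm2, Myo10, Ptprm, Tppp3, Cd55 and Lgmn, with no member among them. In single libraries 3.14, 14, 6.3 and 8.35% of all genes passed with Tns1, from 150, 58, 141 and 121 Tns1-positive cells. Cdkn2a, the gene of the cell cycle inhibitors p16 and p19ARF, was in 4.67, 13.8, 22.7 and 36.4% of Tns1-positive against 0.962, 1.37, 9.60 and 15.0% of Tns1-negative cells, and it passed in all 4 settings. Marco, a scavenger receptor for bacteria and particles, was in 19.3, 37.9, 59.6 and 46.3% against 7.69, 8.53, 28.7 and 23.6%. Cyp26b1, which degrades retinoic acid, rested on 4, 2, 5 and 5 cells with both. It did not pass with a second thinning, at 5000 UMIs or without thinning. Among these 11 genes, passing in the other settings is given here for Cdkn2a and Cyp26b1 only. For Lgals1 and Psd3, 0 genes (0%) passed in every library with the first thinning. Without thinning 21 genes passed for Lgals1 and 1 for Psd3.

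Lyve1-negative macrophages with at least 3 members (384, 439, 336 and 321 cells) were then compared with those with at most 1 (168, 2590, 2771 and 3251 cells) for all genes other than the members and Lyve1. Cells with many members had more F13a1, which is on the resident and the monocyte lists, and less Garnl3, a marker of large peritoneal macrophages. F13a1 had 1275, 633, 462 and 342 CPM in cells with many members, against 621, 291, 167 and 106 CPM in cells with few, and Garnl3 had 14.8, 9.89, 107 and 149 CPM, against 43.7, 35.0, 299 and 304 CPM. The Garnl3 values rested on few UMIs in library 1, 17 against 22, and in library 2, 13 against 272. The log2 ratios of many over few were 1.03, 1.12, 1.47 and 1.69 for F13a1 and -1.55, -1.77, -1.47 and -1.03 for Garnl3. Of 4781 genes at 20 CPM they alone had ratios beyond 1 or beyond -1 in each of the libraries, 1 gene (0.0209%) higher and 1 gene (0.0209%) lower. With a second draw 0 genes were higher and 0 lower, although the median log2 ratios were then 1.19 for F13a1 and -1.14 for Garnl3.

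Most measured genes of resident Lyve1-type macrophages other than the members were higher in the cells with many members. Of 20 on the list, 12 reached 20 CPM; 10 of the 12 were higher in all 4 libraries, 0 were lower in all 4, and F13a1 alone passed the rule. By comparison, 28.6% of the 4781 genes were higher and 7.66% lower in each of the 4. The median log2 ratio of the 12 was 0.74, 0.77, 0.71 and 0.43, and that of all genes 0.03, 0.15, 0.15 and 0.14. Mrc1 had log2 ratios of 0.81, 1.46, 2.93 and 2.96, Stab1, a scavenger receptor also called stabilin 1, 1.60, 1.98, 1.19 and 0.56, and Selenop, a selenium transport protein, 1.15, 0.82, 0.71 and 0.88. Mrc1 is also on the list of small peritoneal or monocyte-derived macrophages, so it is not particular to the resident list. Pf4, the chemokine platelet factor 4, had 0.76, 1.43, 0.71 and 0.29. Timd4, whose product binds phosphatidylserine on dying cells, had -0.16, 0.43, 0.18 and 0.04, and Vsig4, the complement receptor of the immunoglobulin family, had -0.33, 0.85, 0.02 and 0.25, so these 2 had no common sign.

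Most markers of large peritoneal macrophages were lower in cells with many members. Of 15 at 20 CPM, 9 were lower and 1 was higher in all 4 libraries, with medians of -0.45, -0.21, -0.35 and -0.28; Garnl3 alone passed the rule. Gata6, the transcription factor of these cells, had -1.0, -0.35, -0.28 and -0.12, Ltbp1, a latent TGF-beta binding protein, -1.24, -0.69, -0.86 and -0.66, and Cd9, a tetraspanin, -0.55, -0.76, -0.87 and -0.71. Genes of small peritoneal or monocyte-derived macrophages, 8 at 20 CPM with 2 higher and 0 lower in all 4 libraries, differed among libraries, with medians of -1.01, -0.23, 0.41 and 0.65. Retnla had -0.13, 2.86, 2.90 and 2.80, Ccr2, the monocyte chemokine receptor, -1.33, 0.04, 0.78 and 1.4, and the class II gene H2-Aa -1.08, -0.49, 0.28 and 0.46. Mrc1, given above with the resident genes, is also on this list and was higher in all 4 libraries. Among the 4781 tested genes, 28.6% had positive log2 ratios throughout and 7.66% negative ones, and no list was tested against these shares. Of the 7 scavenger receptor genes that reached 20 CPM, 3 were higher in every library, and Marco had 0.82, 1.07, 1.34 and 1.55. Of 11 genes of the lectin pathway and complement, 5 were higher in all 4, with C1qa, a chain of the first complement component, at 0.66, 0.24, 0.24 and 0.33. The remaining lists held 4 galectins, 5 carbonyl reductases, 8 tensin and focal adhesion genes, 5 ARF6 exchange factors, 13 macrophage transcription factors, 1 folate gene, 4 genes of alternative activation and 5 monocyte genes at 20 CPM. Of these 1, 1, 1, 0, 5, 1, 1 and 2 were higher and 0, 1, 2, 1, 1, 0, 0 and 1 lower in all 4 libraries, and F13a1 among the monocyte genes alone passed the rule.

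Levels of other cells' markers and measures of cell quality were compared between the same cells. The summed level of 10 T cell markers was 5.23, 0.761, 1.99 and 0 CPM in cells with many members and 5.96, 1.67, 4.57 and 1.64 CPM in cells with few, with 7 of the 10 at 0 in cells with many and Cd3e at 0 by the gate. That of 9 B cell markers was 253, 47.2, 25.9 and 12.5 CPM, against 220, 28.8, 12.9 and 11.8 CPM, with Cd79a at 0 by the gate. The 8 proliferation markers together stood at 27.0, 294, 275 and 144 CPM, against 17.9, 148, 140 and 107 CPM. The 11 dendritic cell markers together stood at 45.3, 42.6, 25.9 and 27.1 CPM, against 165, 98.2, 36.8 and 43.7 CPM, and were thus lower in cells with many members in each library. The 6 eosinophil markers, Prg2 and Epx among them at 0, stood at 1895, 1649, 2133 and 2072 CPM, against 2581, 2576, 2722 and 2626 CPM. Only 1 of the 6, Alox15, reached 20 CPM, and it is also on the list of large peritoneal macrophages. The sum of the 6 is thus no measure of eosinophils. The neutrophil sum of 8 markers was 88.5 to 150 CPM in cells with many and 112 to 171 CPM in cells with few. The summed NK cell, mast cell, stromal, endothelial and erythroid markers stayed at or below 9.95 CPM in libraries 2 to 4, and in library 1 the mast cell sum was 115 CPM, against 71.5 CPM, and the stromal sum 3.49 CPM, against 31.8 CPM. Median mitochondrial shares were 5.05, 4.07, 4.63 and 4.42%, against 4.62, 3.49, 4.17 and 3.99%. At 3000 UMIs the median number of genes detected was 1421.5, 1361, 1276.5 and 1233, against 1382.5, 1256, 1195 and 1154. Both were thus somewhat higher in cells with many members in each library. The part of these differences in the co-detection was not tested.

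Lyve1-negative macrophages are not 1 kind of cell, so the members were also counted within strata of single marker genes. Cells with a Retnla UMI had at least 3 members in 52.1, 20.2, 19.0 and 12.3%, against 29.4, 8.07, 5.18 and 5.41% of cells without. Among Retnla-positive cells Folr2 was in 44, 30.1, 14.1 and 10.3%, against 15.3, 12.6, 1.95 and 2.13%. Timd4 divided the cells less: at least 3 members were in 41.1, 12.6, 9.02 and 6.65% with and in 51.0, 10.8, 7.45 and 6.86% without a Timd4 UMI. Tns1, in contrast to Folr2, was in a larger share of Timd4-positive cells, with 29.0, 5.89, 5.27 and 3.28%, against 17.8, 0.852, 2.09 and 1.92% of Timd4-negative cells. Ccr2-positive cells had at least 3 members in 43.3, 10.1, 12.2 and 11.5%, against 51.2, 11.2, 7.95 and 6.48% of Ccr2-negative cells. Folr2 and Maf passed the odds ratio limit in every library among cells without a Retnla UMI and among cells without a Timd4 UMI, and when cells with a Cd209a or Ccr2 UMI were left out. The pair did not pass among cells with a Retnla UMI or with a Timd4 UMI, of which library 1 had 107. Folr2 and Fcna passed among cells with a Retnla UMI and not among cells without one, of which library 1 had 85.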

How the data were processed

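RNA of single F4/80+ peritoneal cells was read with a 10x Genomics 3' kit. The deposited matrix holds whole-number UMI counts per gene and barcode, made by the authors without normalization; per the file headers, Cell Ranger 5.0.1 wrote it. The submitters' processing notes also name CASAVA 1.8, Seurat and mm10. No source used here gives the annotation, the counting of intronic reads or the calling of cells. The 4 samples, 1 in each group, are pooled in this matrix.

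Members and gene lists were chosen with earlier results of these data known. Barcodes needed 500 genes and at most 10% mitochondrial UMIs. Macrophages had at least 2 Adgre1 UMIs and no Cd79a or Cd3e UMI, B cells at least 2 Cd79a and 1 Cd79b UMIs and no Cd3e UMI, and T cells at least 2 Cd3e UMIs and no Cd79a UMI. B and T cells also had no Adgre1 UMI, so they were selected for lacking a macrophage transcript. Gates, Lyve1 status, depths, mitochondrial shares, the Apoe and Csf1r values and values called unthinned came from unthinned counts. Other values came from counts thinned without replacement to 3000 UMIs, unless a changed setting is named. Odds ratios used genes with a UMI in 1 to 99% of cells, and log2 ratios of summed counts as CPM used a prior count of 0.5 and 20 CPM in every library. Genes named were the members, Lyve1, Adgre1, genes of 24 lists and up to 12 past the rule in each direction. A planted change in gene level, larger than the limit of the rule, was recovered in simulated counts. Changes in level near that limit were not simulated. Scrublet (scanpy 1.11.5) marked 50, 3, 1 and 2 barcodes, too few in libraries 2 to 4 for it to have worked, so doublets were kept. Python 3.11.15 with numpy 2.4.6, scipy 1.17.1 and pandas 2.3.3 was used. Alternatives changed the thinning, the gates, the filters, the limits, and left out each library in turn.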

Additional observations from a re-analysis of the deposited data

How the results depend on the processing

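No paired analysis was possible because each group has 1 library and the barcode suffixes are tied to no sample. No replicate stands behind any value, and no called value changed sign. Among pairs that were not called, Fcna and Psd3 had a median log2 odds ratio of 0.22 as reported and -0.39 among cells with a Timd4 UMI. Of the 21 pairs, 3 passed in every library as reported, 1 with thinning to 2000 UMIs, with at most 5% mitochondrial UMIs or among cells with a Timd4 UMI, and 6 with an odds ratio limit of 1.5. The median over libraries of the share with at least 3 members was 9.54% as reported, 5.25% at 2000 UMIs, 17.7% at 5000 UMIs, 40.7% without thinning, 7.75% at 5% mitochondrial UMIs, and 10.8, 19.6 and 6.74% among cells with Timd4, with Retnla and without Retnla. Partners past the rule, summed over members, numbered 23 as reported, 140 without thinning, 15 at 5% mitochondrial UMIs, 52 and 15 among cells with and without Timd4, 64 and 73 among cells with and without Retnla, and 207 at the limit of 1.5. Leaving out 1 library gave 38 to 92 partners: 92, 59, 48 and 38 without library 1, 2, 3 and 4. Genes higher in cells with many members numbered 1 as reported, 4 at 2000 UMIs, at 5% mitochondrial UMIs or with a minimum of 5 CPM, 0 with a second draw, without thinning, among cells without Timd4 or with ratios centred on the median, 2 with Lyve1 status from thinned counts or at least 5 Adgre1 UMIs, 3 without cells holding a Cd209a or Ccr2 UMI or a Retnla UMI, and 5 among cells with Timd4. They numbered 5, 3, 2 and 2 without library 1, 2, 3 and 4. Genes lower in cells with many members numbered 1 as reported, 2 without library 4 and 0 at 2000 or 5000 UMIs, with a second draw, without thinning, with at least 5 Adgre1 UMIs, at 5% mitochondrial UMIs, without Cd209a or Ccr2, with and without Timd4 and without Retnla. The cause was not tested.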
